A study of Rattus norvegicus with 9 samples.

Results

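The 10 genes that carry the canonical Wnt signal from the cell surface to the nucleus were followed in rat bone: the co-receptors Lrp5 and Lrp6, the destruction complex genes Apc, Axin1, Axin2 and Gsk3b, β-catenin (Ctnnb1), and the transcription factors Lef1, Tcf7 and Tcf7l2. They were chosen by name for their place in the pathway, and all 10 were among the 23026 genes of the count and FPKM tables and among the 16874 genes with counts high enough to be tested. Messenger RNA was sequenced from the bone of female Sprague–Dawley rats, which were 8 weeks old when bought, in 3 groups of 3 libraries, which the study's methods call independent biological replicates. Sham rats lost fat beside the ovary but kept the ovaries, and OVX rats had both ovaries removed, a model of bone loss after menopause. Treatment began 6 weeks after surgery and lasted 8 weeks, by daily gavage. Sham and OVX rats received the vehicle CMC-Na alone. OVX-AS-IV-High rats were ovariectomized and received astragaloside IV (AS-IV, a saponin of Astragalus) at 80 mg/kg, which by the study's methods was prepared in 1% CMC-Na. By the labels, the CMC-Na given was 1% for Sham replicate 1, 2% for Sham replicate 2, 3% for Sham replicate 3 and 1% throughout OVX, whereas the study's methods give 1% for both groups. Each library held between 34874880 and 37298250 counts.

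In canonical Wnt signaling, a Wnt ligand joins a Frizzled receptor with LRP5 or LRP6. Without ligand, AXIN and APC hold β-catenin for phosphorylation by casein kinase 1 and GSK3B, after which it is degraded; with ligand, the complex is inactivated, and β-catenin enters the nucleus and binds factors of the TCF/LEF family. Signaling through this pathway promotes bone formation by osteoblasts and restrains osteoclast formation through osteoprotegerin, and mutations of human LRP5 alter bone mass. β-catenin is controlled mainly through the stability of its protein, which messenger RNA levels do not show. AXIN2, LEF1 and TCF7 are also targets of the pathway in many tissues, so that their genes are read both as transducers and as outputs.

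Because some of these genes are targets of the factors they encode, their promoters were searched for the core TCF/LEF motif CTTTGAT on both strands. The RefSeq promoter sequences of the GRCr8 assembly cover 250 bases before to 50 bases after each gene's start, and held 7 of the 10 genes; Lrp5, Lrp6 and Axin1 were not among them. The 7 letters occurred in 2 of these promoters, those of Axin2 and Tcf7, and in 1216 of all 33469 promoters (3.63%). These sequences, Axin2 at chr10:94398535-94398834 on the plus strand and Tcf7 at chr10:36954230-36954529 on the minus strand, are shown 5′ to 3′ along the gene, with the motif in capitals.
Axin2: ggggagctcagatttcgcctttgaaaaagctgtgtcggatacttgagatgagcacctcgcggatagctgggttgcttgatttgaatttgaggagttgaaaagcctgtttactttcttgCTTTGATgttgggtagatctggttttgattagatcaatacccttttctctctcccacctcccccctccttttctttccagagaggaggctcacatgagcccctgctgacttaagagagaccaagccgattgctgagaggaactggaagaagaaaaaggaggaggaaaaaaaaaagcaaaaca
Tcf7: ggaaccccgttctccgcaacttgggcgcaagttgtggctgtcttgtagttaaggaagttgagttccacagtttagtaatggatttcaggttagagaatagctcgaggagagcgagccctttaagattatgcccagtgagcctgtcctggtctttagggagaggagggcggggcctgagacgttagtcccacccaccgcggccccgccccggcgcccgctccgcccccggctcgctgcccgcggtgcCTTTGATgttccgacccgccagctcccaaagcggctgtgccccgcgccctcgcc
The match began 132 bases before the start of Axin2 and 4 bases before the start of Tcf7, where it spans the start, and each read in the direction of the gene. The Axin2 window was poor in G and C (45.7%, with 5 CpG), whereas that of Tcf7 was rich (62.7%, with 24 CpG), as were those of Lef1 (64.7%) and Tcf7l2 (70.3%, with 36 CpG), beside a median of 51.7% over all promoters. The windows of Ctnnb1 (48.0%), Apc (44.3%) and Gsk3b (34.7%) were below that median. A match describes letters only; binding was not measured here.

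The tissue label was checked against marker genes. All 7 osteoblast markers were present in every library, and their summed level ran from 4306 to 17187 CPM (counts scaled to library size with TMM factors), with Col1a1 the most abundant. The 5 osteocyte markers, led by Dmp1, summed to between 241.0 and 683 CPM, and the 6 osteoclast markers, led by Ctsk, to between 570.1 and 2030.5 CPM. The libraries also held marrow and other tissue: neutrophil markers, led by S100a9, summed to between 11786 and 21453 CPM, erythroid markers, led by Slc4a1, to between 3953 and 6949 CPM, and endothelial markers, led by Pecam1, to between 202 and 313 CPM. Skeletal muscle varied most. Of 10 muscle markers, 9 were measured, with Acta1 the most abundant, and they summed to 8541, 6040, 1487 (Sham), 3134, 1848, 1577 (OVX) and 4388, 2072, 553 CPM (OVX-AS-IV-High). Sham replicates 1 and 2 thus held the most muscle RNA, and the span was 15.5-fold between the lowest and the highest library. Among the markers of all 11 cell type lists that were in the tables, only Ltf of the neutrophil list was at 0 counts in a library; Mylpf and Vpreb1 were absent from the tables and were not analysed here.

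Per length of gene, β-catenin was by far the most abundant of the 10 transcripts. Over the 9 libraries, the mean FPKM was 102 for Ctnnb1, 14.9 for Axin1, 9.29 for Gsk3b, 8.18 for Lrp5, 6.77 for Lef1, 4.67 for Tcf7l2, 3.86 for Apc, 2.49 for Lrp6, 1.26 for Axin2 and 1.07 for Tcf7. Ctnnb1 lay above 96.1% of the tested genes in mean FPKM, and Tcf7 above 25.7%. Between neighbours in this order, the libraries did not overlap from Ctnnb1 to Axin1, from Axin1 to Gsk3b, from Apc to Lrp6 and from Lrp6 to Axin2. Gsk3b overlapped Lrp5, and Tcf7l2 overlapped Apc, but every library of Gsk3b (lowest 7.96) and Lrp5 (lowest 6.48) lay above the highest of Tcf7l2 (5.97) and Apc (5.10). Lef1, from 2.97 to 9.36, overlapped each of these 4 genes, and Axin2 and Tcf7 overlapped each other. Within families, Lrp5 exceeded Lrp6 in FPKM in every library, by between 2.63-fold and 5.07-fold, and Axin1 exceeded Axin2 by between 7.91-fold and 14.4-fold. Lef1 exceeded Tcf7 in FPKM by between 3.65-fold and 10.0-fold, while its ratio to Tcf7l2 ran from 0.654 in Sham replicate 2 to 2.24 in OVX-AS-IV-High replicate 3.

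**Figure D1:**
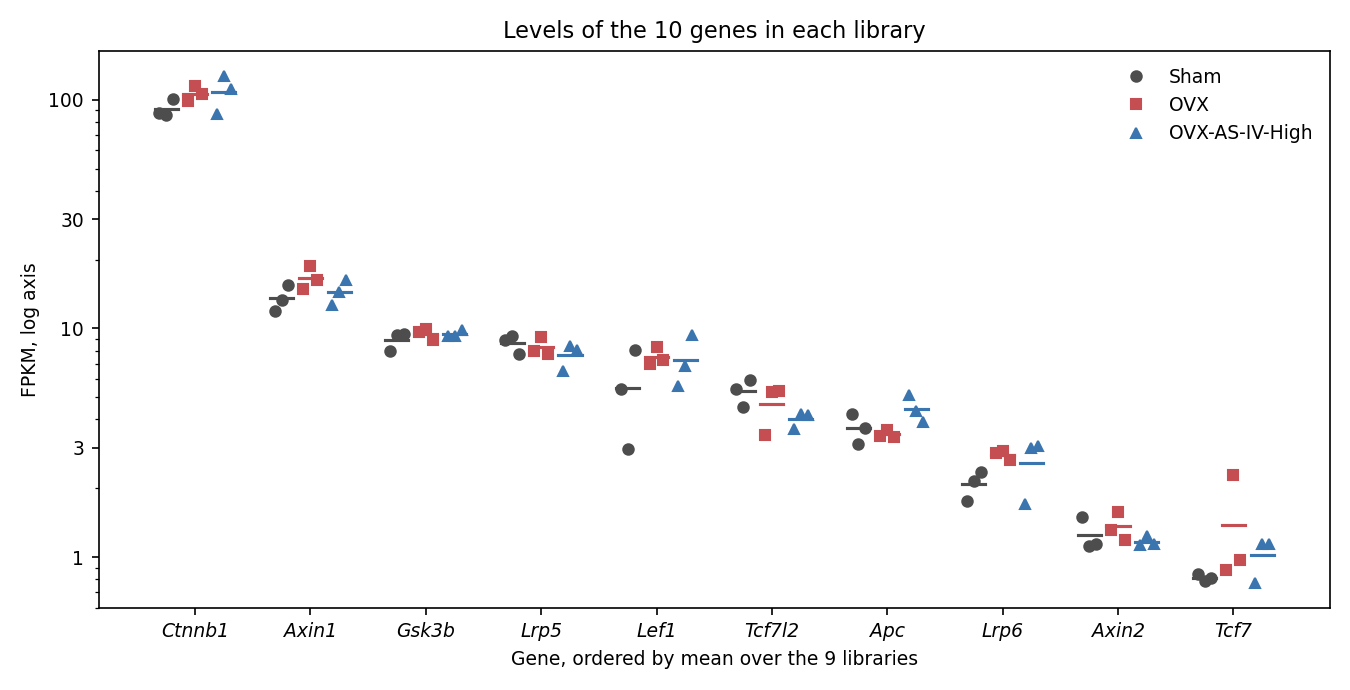
FPKM on a log axis (y) of the 10 genes (x, ordered by mean) in each library, with a horizontal line at each group's mean; circles are Sham, squares OVX and triangles OVX-AS-IV-High, n = 3 each. Ctnnb1 lies apart from all others at 85.8 to 127, and the Tcf7 library at 2.27 is OVX replicate 2.

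Few of the 10 transcripts differed between groups beyond the spread between libraries. In OVX vs. Sham, 0 of the 10 genes passed an unadjusted p of 0.05 by the quasi-likelihood test of edgeR, where 2775 of all 16874 genes tested did (16.4%). DESeq2 gave 1 gene (Tcf7), beside 18.8% of all genes. With limma the count was 0, beside 17.2% on log2(FPKM + 1) and 16.8% on log2(FPKM + 0.1). Treated against untreated OVX rats, the count was 1 of 10 (Apc, higher), beside 6.45% of all genes. DESeq2 and limma each gave 1 (Apc), beside 7.46% in DESeq2 and 6.76% and 6.48% in limma at the same pseudocounts. For OVX-AS-IV-High vs. Sham the count was 1 of 10 (Apc, higher), beside 17.6%. It was 2 in DESeq2 (Apc and Tcf7l2), beside 19.5%, and 0 in limma, beside 17.5% and 17.3%. At an adjusted p under 0.05, edgeR called 0 of the 10 genes and 0% of all genes in every comparison. DESeq2, which called 834, 37 and 1009 of all genes at that threshold in the same order, and limma also called 0 of the 10. A list of 10 genes is too short for such shares to set it apart from the rest. Each pair of comparisons shares the libraries of 1 group, so that they are not independent.

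By the libraries themselves, CPM did not overlap between OVX and Sham for 2 genes (Lrp6 and Tcf7, higher in OVX), beside 23.3% of all genes, between OVX-AS-IV-High and OVX for 1 (Apc, higher), beside 12.7%, and between OVX-AS-IV-High and Sham for 1 (Tcf7l2, lower), beside 19.9%. With 3 libraries against 3, the smallest two-sided p of an exact permutation test is 0.1. The median log2FC of the 10 genes, in the order of these comparisons, was 0.14, -0.084 and 0.17, where the medians over all genes were -0.0062, -0.016 and -0.013. A change of more than 2-fold in either direction lay outside the 95% interval of 8 genes in OVX vs. Sham (all but Lef1 and Tcf7), of 9 between treated and untreated OVX rats (all but Tcf7) and of 8 between treated and Sham rats (all but Lef1 and Tcf7). The share of all genes with such intervals was not computed, so these counts are not a result about the 10.

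With single libraries left out, both the count of the 10 genes and the share of all genes with an unadjusted p under 0.05 moved. In OVX vs. Sham the count was 2 without Sham replicate 3 (Axin1 and Lef1), where 25.2% of all genes passed. It was 1 without OVX replicate 1 (Tcf7, beside 15.2%), OVX replicate 3 (Tcf7, beside 10.5%) or OVX-AS-IV-High replicate 1 (Lrp6, beside 18.5%), and 0 without any other library. With the replicate number as a block it was 2 (Axin1 and Lrp6), beside 21.8%. Between treated and untreated OVX rats the count was 2 without OVX replicate 1 (Apc and Tcf7l2), beside 5.56%, and 1 (Apc) without any other library, beside shares from 3.95% to 8.32%.

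Against Sham, treated rats gave 2 without OVX-AS-IV-High replicate 1 (Ctnnb1 and Lrp6), beside 21.3%, and 0 without OVX replicate 2 (beside 16.1%) or OVX-AS-IV-High replicate 2 (beside 11.3%). The count was 1 in the other fits, but not of 1 gene: it was Apc without Sham replicate 1 (beside 14.1%) or OVX-AS-IV-High replicate 3 (13.7%), Lef1 without Sham replicate 3 (23.3%), and Tcf7l2 without Sham replicate 2 (11.2%), OVX replicate 1 (16.1%) or OVX replicate 3 (15.6%). A count of 2 among 10 genes is near or below the share of all genes in each of these fits against Sham, and is not a result about the 10.

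**Figure D2:**
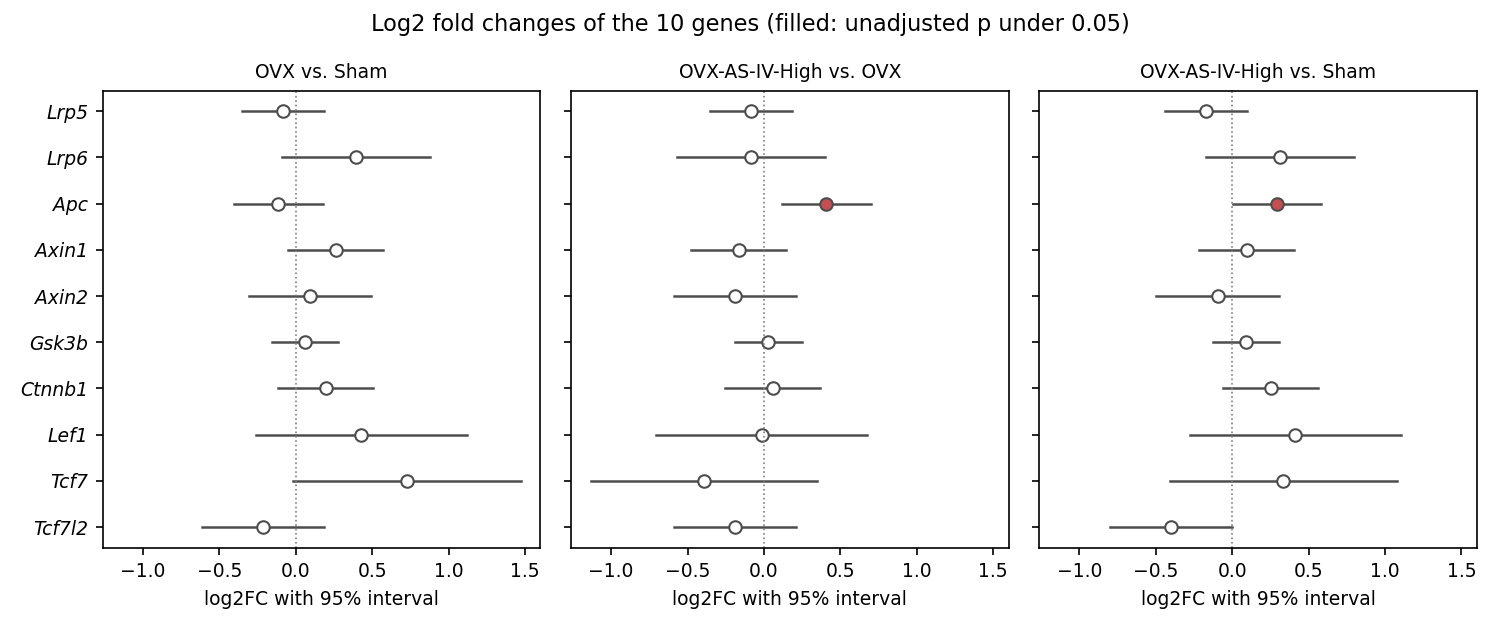
Log2 fold change (x, point) and 95% interval (bar) of each gene (y, by role) in the 3 comparisons, from edgeR's fit of all 9 libraries; filled points have an unadjusted p under 0.05. Apc is filled in both comparisons of OVX-AS-IV-High, at 0.41 against OVX and 0.29 against Sham, and the widest intervals are those of Lef1 and Tcf7.

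Of the co-receptors, Lrp5 had counts of 1619, 1641, 1402 (Sham), 1474, 1719, 1439 (OVX) and 1230, 1578, 1485 (OVX-AS-IV-High group). The groups overlapped throughout, and log2FC stood at -0.085 in OVX vs. Sham (95% interval -0.35 to 0.18) and -0.085 in treated vs. untreated OVX rats (-0.35 to 0.18). Lrp6, its close relative, had counts of 369, 441, 497 (Sham), 607, 631, 573 (OVX) and 375, 654, 653 (OVX-AS-IV-High). Every OVX library was thus above every Sham library, while OVX-AS-IV-High was split, with replicate 1 among the Sham values and the other two above all OVX values. In FPKM this was 2.09 ± 0.311 in Sham, 2.80 ± 0.138 in OVX and 2.59 ± 0.759 after treatment (mean ± SD, n = 3). The log2FC of Lrp6 in OVX vs. Sham was 0.39 (standard error 0.215, edgeR adjusted p = 0.376), and it ran from 0.26 without Sham replicate 1 to 0.50 without Sham replicate 3. Its unadjusted p was under 0.05 with the replicate block (log2FC 0.42), in a fit of only these groups (0.39) and without OVX-AS-IV-High replicate 1 (0.40). In OVX-AS-IV-High vs. Sham, Lrp6 had a log2FC of 0.31 with all libraries (95% interval -0.17 to 0.80). This was 0.53 without OVX-AS-IV-High replicate 1, with an unadjusted p under 0.05, and 0.18 without OVX-AS-IV-High replicate 3.

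In the destruction complex, Apc, the large scaffold that binds β-catenin, was the gene called in both comparisons of treated rats. It had counts of 1958, 1420, 1707 (Sham), 1601, 1724, 1607 (OVX) and 2473, 2112, 1849 (OVX-AS-IV-High group). The OVX libraries lay close together, within the range of Sham, and every OVX-AS-IV-High library exceeded them, with replicate 1 the highest and replicate 3 below the highest Sham library. In CPM Apc stood at 44.2 ± 1.07 in OVX and 58.7 ± 8.73 after treatment (mean ± SD, n = 3). The log2FC in OVX-AS-IV-High vs. OVX was 0.41 (standard error 0.129, 95% interval 0.12 to 0.70, edgeR adjusted p = 0.652), with an unadjusted p under 0.05 in each fit that left out 1 library, at 0.29 without OVX-AS-IV-High replicate 1 to 0.50 without OVX-AS-IV-High replicate 3. Against Sham, the log2FC of Apc was 0.29 (standard error 0.129, edgeR adjusted p = 0.276). That call was lost without any of 7 libraries, Sham replicates 2 and 3, the 3 OVX libraries and OVX-AS-IV-High replicates 1 and 2, with log2FC from 0.17 to 0.31, and also with limma, in a fit of only these groups, and without Sham replicates 1 and 2 together. In OVX vs. Sham it was -0.11 (95% interval -0.40 to 0.18). Whether more Apc RNA per cell or more cells that express Apc lay behind a higher level cannot be told apart in bulk tissue, and the same holds for every gene here.

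Axin1, the limiting scaffold of the complex in many cells, had counts of 1528, 1675, 2000 (Sham), 1931, 2497, 2152 (OVX) and 1694, 1929, 2139 (OVX-AS-IV-High). OVX was the highest group on average, but its lowest library fell below the highest Sham library. The log2FC was 0.26 in OVX vs. Sham (standard error 0.138, edgeR adjusted p = 0.363), with an unadjusted p under 0.05 without Sham replicate 3 (0.37) and with the replicate block (0.27). It was 0.16 without Sham replicate 1. After treatment, compared with OVX, it was -0.17 (95% interval -0.48 to 0.15). Axin2, its inducible relative, had counts of 286, 208, 218 (Sham), 255, 310, 233 (OVX) and 224, 244, 220 (OVX-AS-IV-High). All groups overlapped, and the gene whose promoter holds the TCF/LEF letters 132 bases before its start showed a log2FC of 0.093 in OVX vs. Sham (95% interval -0.31 to 0.49) and -0.19 in treated vs. untreated OVX rats (-0.59 to 0.21). Within replicate numbers 1, 2 and 3, its CPM was 6.95, 8.18 and 6.32 in OVX and 6.17, 6.61 and 6.05 after treatment, lower each time. With the replicate block, Axin2 did not reach an unadjusted p under 0.05 in that comparison, and the study does not describe the numbers as pairs. Gsk3b, the kinase, was the steadiest of the 10: its counts ran from 2567 in Sham replicate 1 to 3296 in OVX replicate 2, and only 6.12% of the tested genes had a smaller SD of log2 CPM over the 9 libraries. Its 95% intervals were the narrowest of the 10 genes, -0.16 to 0.28 in OVX vs. Sham and -0.19 to 0.25 in treated vs. untreated OVX rats.

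Ctnnb1, which encodes β-catenin itself, had counts of 12059, 11524, 13836 (Sham), 13790, 16232, 15056 (OVX) and 12458, 18176, 15527 (OVX-AS-IV-High group). The Sham libraries were mostly low, but Sham replicate 3 lay above OVX replicate 1, and OVX-AS-IV-High spanned the widest range, from among the Sham values to above every OVX library. The group means were 91.2 ± 8.09 FPKM in Sham, 106 ± 7.83 in OVX and 108 ± 20.2 after treatment (mean ± SD, n = 3). The log2FC was 0.19 in OVX vs. Sham (standard error 0.139, 95% interval -0.12 to 0.51, edgeR adjusted p = 0.482), 0.058 in treated vs. untreated OVX rats (95% interval -0.25 to 0.37) and 0.25 in OVX-AS-IV-High vs. Sham (95% interval -0.059 to 0.56). The last was 0.38 without OVX-AS-IV-High replicate 1, with an unadjusted p under 0.05.

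Of the nuclear factors, Lef1 and Tcf7 are lymphoid and osteoblast factors of the HMG-box family, and Tcf7l2 is widely expressed. Lef1 had counts of 935, 499, 1389 (Sham), 1216, 1470, 1293 (OVX) and 1006, 1228, 1637 (OVX-AS-IV-High). Sham was the most scattered group, with replicate 2 the lowest library of the 9 and replicate 3 about as high as the highest OVX library. The log2FC in OVX vs. Sham was 0.43 (standard error 0.307, edgeR adjusted p = 0.486); it was 0.15 without Sham replicate 2 and 0.82, with an unadjusted p under 0.05, without Sham replicate 3. With Sham replicates 1 and 2 both left out, the libraries richest in muscle RNA, it was -0.13, an alternative chosen after the data were seen, in which the remaining Sham library is assumed to vary like the other groups. The log2FC of Lef1 in OVX-AS-IV-High vs. Sham behaved likewise, at 0.41 with all libraries, 0.13 without Sham replicate 2, 0.81, with an unadjusted p under 0.05, without Sham replicate 3 and -0.14 without Sham replicates 1 and 2. Between treated and untreated OVX rats it was -0.014 (95% interval -0.70 to 0.67).

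Tcf7 had counts of 329, 301, 316 (Sham), 350, 917, 391 (OVX) and 316, 462, 456 (OVX-AS-IV-High group). The Sham libraries were nearly equal, and every OVX library was higher, but OVX replicate 2 stood far above all others. The log2FC in OVX vs. Sham was 0.73 (standard error 0.330, 95% interval -0.016 to 1.47, edgeR adjusted p = 0.314), and without OVX replicate 2 it was 0.18. It came to 0.96 when OVX replicate 1 was left out and to 0.92 when OVX replicate 3 was, both with an unadjusted p under 0.05. From OVX to OVX-AS-IV-High, the log2FC of -0.39 (95% interval -1.13 to 0.35) turned to 0.16 without OVX replicate 2. The T lymphocyte markers, 9 of 9 measured and led by Lat, summed to 70.7, 72.3, 67.4 (Sham), 62.3, 119.6, 71.0 (OVX) and 66.4, 60.8, 69.5 CPM (OVX-AS-IV-High). The sum was thus highest in the same library as Tcf7, although Lat, its most abundant gene, had a log2FC of -0.34 in OVX vs. Sham. Of the 9 markers, 8 had a log2FC above 0 in that comparison, with a median of 0.71, and 2 were higher at an unadjusted p under 0.05, Cd5 (1.15) and Lck (0.82), each with every OVX library above every Sham library. Relative to OVX, treated rats had a log2FC above 0 for 0 of the 9, with a median of -0.44. The part of these markers in the level of Tcf7 was not tested.

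Tcf7l2 had counts of 905, 736, 990 (Sham), 575, 900, 912 (OVX) and 626, 731, 704 (OVX-AS-IV-High). All OVX-AS-IV-High libraries lay below all Sham libraries, whereas OVX spanned both groups, with replicate 1 the lowest of the 9. In FPKM this was 5.32 ± 0.720 in Sham, 4.67 ± 1.09 in OVX and 4.01 ± 0.342 after treatment (mean ± SD, n = 3). The log2FC in OVX-AS-IV-High vs. Sham was -0.40 (standard error 0.177, edgeR adjusted p = 0.283), just outside an unadjusted p of 0.05 and inside it with DESeq2, with no filter, with the replicate block, in a fit of only these groups, and without Sham replicate 2, OVX replicate 1 or OVX replicate 3, where it was -0.48, -0.40 and -0.40. Relative to OVX it was -0.19 with all libraries. This became -0.37 without OVX replicate 1, with an unadjusted p under 0.05, and -0.069 without OVX replicate 3.

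How the 10 genes varied with each other was described by correlation of log2 CPM over the 9 libraries, for all 45 pairs. Of these, 31 had a positive r. By Pearson r, the exact permutation p was under 0.05 for 4 pairs and, after adjustment over the 45, for 0. Without OVX-AS-IV-High replicate 2, 1 pair passed that adjustment. Ctnnb1 and Lrp6 were the closest pair (Pearson r = 0.848, exact permutation p = 0.00325, adjusted over the 45 pairs 0.146; Spearman rho = 0.883, exact p = 0.00308). Within groups, from deviations from the group means, r was 0.830, and it was 0.826 without Sham replicate 1 and OVX-AS-IV-High replicate 2, the libraries farthest from the median of Ctnnb1. Lrp6 and Axin1 came next by Pearson r (r = 0.792, exact permutation p = 0.0100, adjusted 0.226, and Spearman rho = 0.750, exact p = 0.0255). Without Sham replicate 1 and OVX-AS-IV-High replicate 1, the libraries farthest from the median of Lrp6, r was lower, at 0.404. Leaving out the extremes also narrows the range of Lrp6, which by itself can lower r. Within groups r was 0.717. By Spearman's rho, Axin1 and Lef1 (0.850, exact permutation p = 0.00607, adjusted 0.124), Lrp6 and Tcf7 (0.833, exact p = 0.00827, adjusted 0.124) and Ctnnb1 and Tcf7 (0.800, exact p = 0.0138, adjusted 0.156) ranked above Lrp6 and Axin1. For Axin1 and Tcf7, Pearson r was 0.728 (exact permutation p = 0.0225; Spearman rho = 0.750, exact p = 0.0255), 0.606 within groups and 0.544 without Sham replicate 1 and OVX replicate 2. For Ctnnb1 and Axin1 it was 0.674 (exact permutation p = 0.0458; Spearman rho = 0.733, exact p = 0.0311), 0.677 within groups and 0.945 without Sham replicate 1 and OVX-AS-IV-High replicate 2.

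The 10 genes were also set against cell type markers. How many of all genes reach such correlations with the same lists was not computed, so the counts that follow are not a result about the 10. Each gene was correlated with the summed CPM of each of 11 marker lists, 110 pairs in all, of which 24 reached an exact permutation p under 0.05, 5 of them also after adjustment over the 110. By Spearman's rho, 2 pairs passed that adjustment, Ctnnb1 with adipocyte and Lef1 with muscle markers. The count of 5 depended on most single libraries: it was 0 without Sham replicate 1 or OVX replicate 3, 1 or 2 without Sham replicate 3, OVX replicate 1, OVX replicate 2, OVX-AS-IV-High replicate 1 or OVX-AS-IV-High replicate 3, 6 without Sham replicate 2 and 8 without OVX-AS-IV-High replicate 2. Ctnnb1 followed the adipocyte list, of which all 6 markers were measured, with Fabp4 the most abundant. The list summed to 409, 437, 633 (Sham), 609, 832, 816 (OVX) and 533, 844, 826 CPM (OVX-AS-IV-High). Ctnnb1 ranked the 9 libraries in the same order as this sum (Spearman rho = 1, exact permutation p = 5.51e-06, adjusted over 110 pairs 0.000606; Pearson r = 0.920, exact permutation p = 0.000292, adjusted 0.0227). Within groups r was 0.912, and without Sham replicates 1 and 2 it was 0.883.

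Axin1 followed the osteoclast markers, 6 of 6 measured, which summed to 570.1, 1003, 1744 (Sham), 982, 1869, 2030.5 (OVX) and 863, 1499, 2025 CPM (OVX-AS-IV-High) (Pearson r = 0.919, exact permutation p = 0.000413, adjusted 0.0227; Spearman rho = 0.883, exact p = 0.00308, adjusted 0.0677). It also followed the osteoblast markers, 7 of 7, at 4306, 5854, 13283 (Sham), 10678, 17187, 14486 (OVX) and 5153, 14149, 9498 CPM (OVX-AS-IV-High) (Pearson r = 0.878, exact permutation p = 0.00124, adjusted 0.0428; Spearman rho = 0.783, exact p = 0.0172, adjusted 0.146). Both sums were lowest in Sham replicate 1 and low in OVX-AS-IV-High replicate 1, as was Axin1. Without these libraries r was 0.783 for osteoclast and 0.693 for osteoblast markers, and within groups it was 0.940 and 0.810.

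Tcf7l2 followed the chondrocyte markers, 6 of 6 measured and led by Col2a1, at 2242, 1214, 3143 (Sham), 533, 1300, 2092 (OVX) and 928, 1828, 1447 CPM (OVX-AS-IV-High) (Pearson r = 0.883, exact permutation p = 0.00156, adjusted 0.0428; Spearman rho = 0.867, exact p = 0.00451, adjusted 0.0827). Sham replicate 3 was the highest and OVX replicate 1 the lowest library for both the gene and the list; without them r was 0.688, and within groups it was 0.957. Lef1 followed the B lineage markers, 11 of 12 measured and led by Cd79a, at 828, 800.2, 1101 (Sham), 1379, 1499, 1464 (OVX) and 984, 1176, 1456 CPM (OVX-AS-IV-High) (Pearson r = 0.816, exact permutation p = 0.00207, adjusted 0.0455; Spearman rho = 0.733, exact p = 0.0311, adjusted 0.190). Without Sham replicates 1 and 2, r for Lef1 was 0.610, and within groups it was 0.853. Lef1 was also lower where muscle markers were higher (Spearman rho = -0.967, exact permutation p = 0.000165, adjusted 0.00909; Pearson r = -0.799, exact p = 0.00917, adjusted 0.0814), with an r of -0.871 without Sham replicate 1 and OVX-AS-IV-High replicate 3 and of -0.740 within groups. Axin1, Lrp6 and Ctnnb1 also had negative coefficients with the muscle sum at an exact permutation p under 0.05, but not after adjustment.

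The marker lists were also compared between groups, at an unadjusted p under 0.05 in edgeR. In OVX, 10 of 11 B lineage, 5 of 6 adipocyte, 2 of 9 T lymphocyte, 2 of 7 tested neutrophil and 1 of 7 osteoblast markers were higher than in Sham, and 1 of 6 chondrocyte and 1 of 6 endothelial markers were lower, beside 8.16% and 8.28% of all genes. The osteocyte, osteoclast, erythroid and muscle lists had 0 calls, but all 9 muscle markers had a log2FC below 0, with a median of -1.05, as had all 6 chondrocyte markers, with a median of -0.65, and the osteoclast median was 0.38. The medians of the osteoblast, adipocyte and B lineage lists were 0.38, 1.23 and 0.68. Treated rats, compared with Sham, had 4 of 6 adipocyte, 4 of 11 B lineage, 3 of 7 neutrophil and 1 of 5 osteocyte markers higher, beside 9.17%, and 5 of 6 endothelial, 1 of 6 chondrocyte and 1 of 9 T lymphocyte markers lower, beside 8.48%. The medians of the muscle and chondrocyte lists there were -1.17 and -0.63, with 0 muscle markers called. Compared with OVX, treated rats had 3 of 11 B lineage and 1 of 6 endothelial markers lower, beside 2.03%, and 0 of any list higher, beside 4.42%. The osteoblast median there was -0.41, with a log2FC above 0 for 1 of 7 markers. At an adjusted p under 0.05, edgeR called 0 markers in every list and comparison. Apc, the gene called in treated rats, had an exact permutation p under 0.05 with 0 of the 11 lists. Its Pearson r was largest in size with the neutrophil markers, at 0.595 (exact permutation p = 0.0926, Spearman rho = 0.433). Within groups that r was 0.426. With 9 libraries, a p above 0.05 does not show that Apc and a list are unrelated. What part cell composition has in the levels of these genes was not tested.

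**Figure D3:**
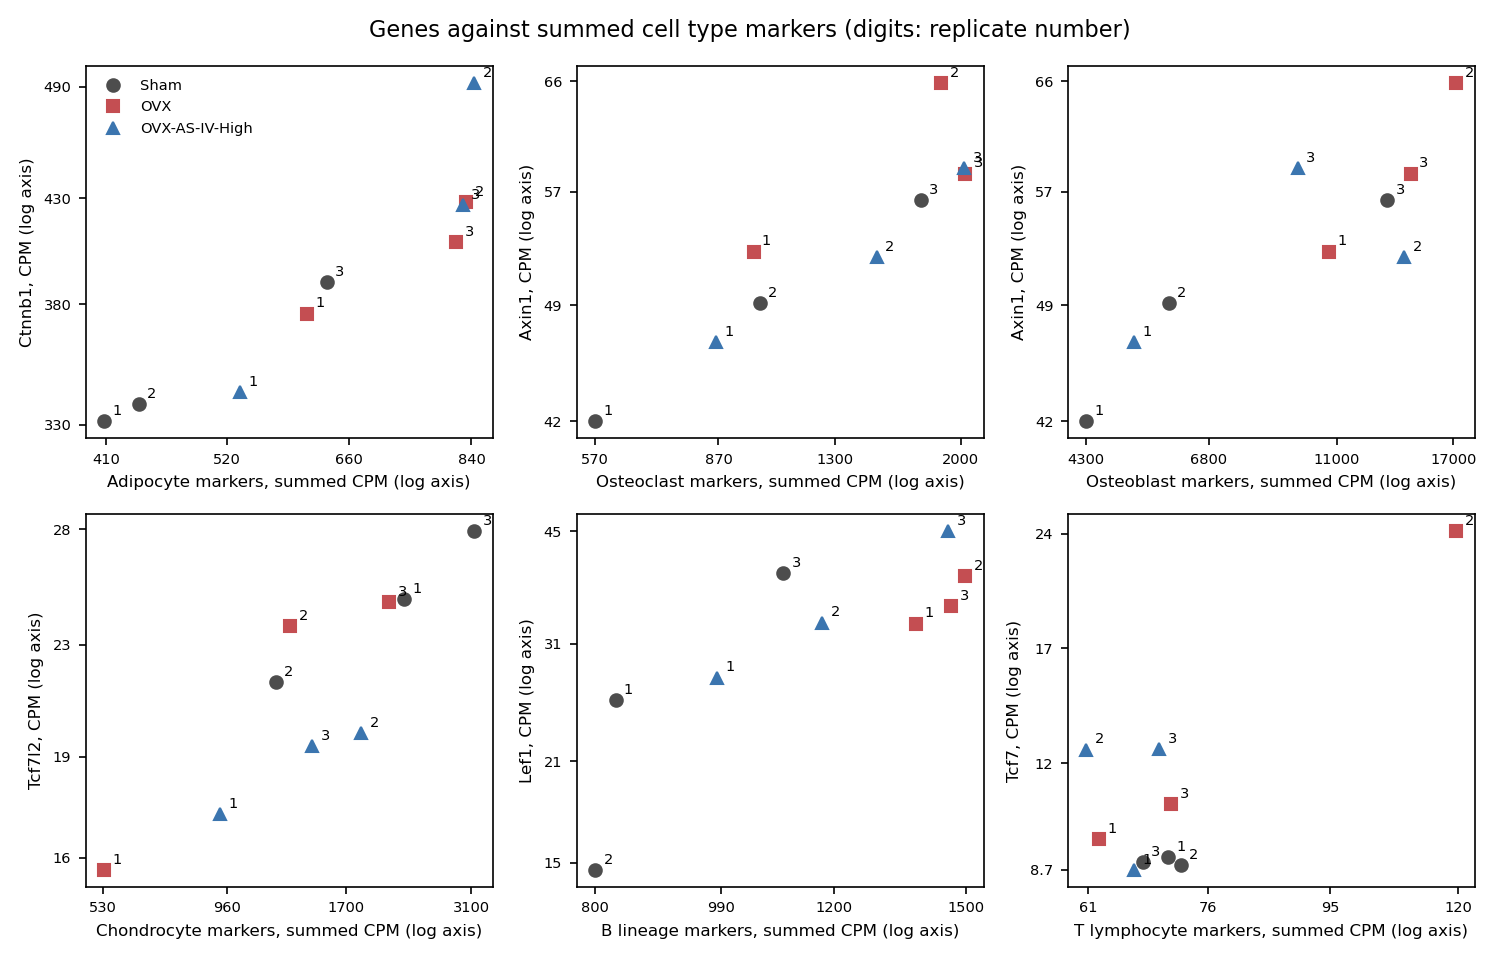
CPM of a gene (y) against the summed CPM of a marker list (x), both on log axes, in the 9 libraries; digits give the replicate number. The 5 pairs with an adjusted p under 0.05 are shown with Tcf7 and the T lymphocyte list (r = 0.820, exact permutation p = 0.0861, Spearman rho = 0.167), where OVX replicate 2 stands alone and r is 0.148 without it and OVX-AS-IV-High replicate 2.

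Among 14478 other genes with a mean of at least 1 CPM, the pair most like each gene over the 9 libraries was named by Pearson r, as a description with no test. For Tcf7 these were genes of cytotoxic lymphocytes, the granzyme Gzmm (r = 0.970, rho = 0.967) and the co-receptor Cd8a (r = 0.967, rho = 0.783). Cd8a had counts of 215, 226, 174 (Sham), 233, 934, 241 (OVX) and 193, 304, 264 (OVX-AS-IV-High), and Gzmm had 540 in OVX replicate 2 and between 126 and 228 elsewhere. Both were thus highest in the library where Tcf7 was highest; without it and OVX-AS-IV-High replicate 3, r was 0.825 for Cd8a and 0.772 for Gzmm. Tcf7l2 was most like Ipo4, an importin (r = 0.970, rho = 0.983), and Car12, a carbonic anhydrase (r = 0.965, rho = 1), which had counts of 284, 133, 434 (Sham), 50, 174, 192 (OVX) and 85, 123, 115 (OVX-AS-IV-High). Lef1 was most like Ndp, whose product norrin binds Frizzled 4 and LRP5 (r = 0.959, rho = 0.883), and Ccdc157 (r = 0.948, rho = 0.917). Ndp was a low gene, with 17 counts in Sham replicate 2, where Lef1 was lowest, and 72 in OVX replicate 2.

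Ctnnb1 was most like Sec24d, a component of the COPII coat of secretory vesicles (r = 0.971), and Il13ra2, a decoy receptor (r = 0.966). Lrp6 was most like Cog5 (r = 0.988) and Plpbp (r = 0.984), and Axin1 most like Ift88, a gene of ciliary transport (r = 0.977), and Fem1b (r = 0.973). These were crowded patterns, with 77 genes over an r of 0.9 for Ctnnb1, 229 for Lrp6 and 187 for Axin1. Apc was most like Hnrnph2 (r = 0.960) and LOC102555377 (r = 0.960). The remaining genes had few neighbours: Gsk3b was most like Lactb2 (r = 0.954, but 0.487 without Sham replicate 1 and OVX replicate 3) and Mbd4 (r = 0.948), Lrp5 like Nek3 (r = 0.926) and LOC102548530 (r = 0.918, but 0.644 without Sham replicate 2 and OVX-AS-IV-High replicate 1), and Axin2 like Pip4p1 (r = 0.926) and Tmem106c (r = 0.917), with 4, 5 and 6 genes over an r of 0.9.

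The other genes of the pathway were taken as 5 lists with 95 genes, of which 92 were tested. In OVX vs. Sham, 9 were higher and 8 lower at an unadjusted p under 0.05, beside 8.16% and 8.28% of all genes, and the median log2FC was -0.023. Between treated and untreated OVX rats, 5 were higher and 1 lower, beside 4.42% and 2.03%, with a median of -0.022, and between treated and Sham rats 9 were higher and 9 lower, beside 9.17% and 8.48%, with a median of -0.0010. At an adjusted p under 0.05, edgeR called 0 of the 92 genes in each comparison. These pooled counts lie near the shares of all genes; the same shares are the background for each of the 5 lists, which hold between 10 and 23 tested genes. The calls of single pathway genes were not recomputed without single libraries, and they come from the fit without a replicate block.

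Of 20 tested receptors and surface regulators, 1 was lower and 0 higher in OVX than in Sham, and the same counts held against Sham in OVX-AS-IV-High. This gene was Fzd4, the Frizzled receptor of norrin, with counts of 1397, 1266, 921 (Sham), 819, 1029, 787 (OVX) and 863, 936, 885 (OVX-AS-IV-High) (log2FC -0.52 and -0.47 against Sham). Its highest libraries were Sham replicates 1 and 2, which also held the most muscle RNA (8541 and 6040 CPM of muscle markers, against 1487 in Sham replicate 3), and Sham replicate 3 lay within the range of OVX. Treatment against OVX gave 0 of the 20. Of 22 genes of the Dishevelled and destruction complex list, 2 were higher and 3 lower in OVX than in Sham. Among the Dishevelled genes, which relay the signal from Frizzled, Dvl1 was lower (log2FC -0.48), while Dvl3 (0.29) and Dvl2 (0.25) were higher. Caprin2, which promotes LRP5 and LRP6 phosphorylation, was also lower, with counts of 1493, 1069, 624 (Sham), 880, 674, 487 (OVX) and 712, 644, 632 (OVX-AS-IV-High) (log2FC -0.71 and -0.73 against Sham). Here too Sham replicates 1 and 2 were the highest libraries and Sham replicate 3 lay within the range of OVX. The part of muscle RNA in the levels of Fzd4 and Caprin2 was not tested.

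The same list gave 3 of the 5 genes that were higher in treated than in untreated OVX rats. Frat2, which binds GSK3 and keeps it from AXIN, had counts of 1177, 1290, 1398 (Sham), 1065, 981, 1072 (OVX) and 1265, 1340, 1359 (OVX-AS-IV-High group). The OVX libraries lay below those of both other groups, with a log2FC of -0.38 in OVX vs. Sham (95% interval -0.61 to -0.16, edgeR adjusted p = 0.153) and 0.37 with treatment relative to OVX (95% interval 0.14 to 0.59, edgeR adjusted p = 0.652). Its relative Frat1 had counts of 1013, 1342, 1373 (Sham), 1080, 1019, 1102 (OVX) and 1335, 1282, 1388 (OVX-AS-IV-High), with a log2FC of 0.35 between the treated and untreated OVX groups. Csnk1g3, a casein kinase, had a log2FC of 0.29 in the same comparison and 0.32 in OVX-AS-IV-High vs. Sham, where Csnk1a1, the kinase that primes β-catenin (0.25), and Tnks, a tankyrase that marks AXIN for degradation (0.21), were also higher and Dvl1 was lower (-0.47).

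Of 23 nuclear cofactors and TCF repressors, 2 were higher and 3 lower in OVX than in Sham. The chromatin remodeler Smarca4 had counts of 5032, 5066, 6575 (Sham), 7515, 7978, 9271 (OVX) and 5903, 6408, 7710 (OVX-AS-IV-High) (log2FC 0.50 in OVX vs. Sham), and Ruvbl2 had a log2FC of 0.31. Pygo2, a partner of β-catenin through BCL9, had counts of 3111, 2467, 2605 (Sham), 2186, 1976, 2063 (OVX) and 2279, 2124, 2057 (OVX-AS-IV-High) (log2FC -0.46 and -0.39 against Sham). All Sham libraries lay above all others for this gene. The Groucho co-repressors Tle1 (log2FC -0.89) and Tle2 (-0.49) were below Sham in OVX, and Tle2 was lower in OVX-AS-IV-High than in Sham (-0.47). The acetyltransferase gene Ep300 was higher in treated rats than in OVX (0.24) and Sham rats (0.26), and Tbl1xr1 (0.37) and Cdc73 (0.46) were higher in treated than in Sham rats.

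Of 17 tested Wnt target genes, 4 were higher and 1 lower in OVX than in Sham, beside 8.16% and 8.28% of all genes; whether the targets differ from other genes was not tested. Sox4 had counts of 2030, 1572, 2999 (Sham), 3358, 3257, 3993 (OVX) and 3422, 4295, 3965 (OVX-AS-IV-High), so that Sham was below both other groups (log2FC 0.62 and 0.78). Smad6 (log2FC 0.48 and 0.50 against Sham) and Gja1, the gap junction gene of osteoblasts and osteocytes (0.85 in OVX vs. Sham), were higher as well. Ccnd1, the cyclin D1 gene, went the other way, with counts of 1209, 1114, 1281 (Sham), 847, 638, 1163 (OVX) and 754, 830, 703 (OVX-AS-IV-High) (log2FC -0.51 and -0.71). In OVX-AS-IV-High vs. Sham, Nkd2 (-0.42) and Myc (-0.33) were lower too. Compared with OVX, treated rats had 1 target higher, Cd44 (0.22), and 1 lower, Tnfrsf19, the remaining target that was higher in OVX than in Sham (0.76), with counts of 102, 120, 139 (Sham), 169, 256, 220 (OVX) and 76, 124, 170 (OVX-AS-IV-High) (log2FC -0.77, standard error 0.306, edgeR adjusted p = 0.733). The other 12 of the 17 targets did not pass in OVX vs. Sham, nor did 15 of 17 in treated rats compared with OVX. Gja1 had counts of 3031, 2682, 5216 (Sham), 4873, 8343, 7464 (OVX) and 3775, 7448, 5748 (OVX-AS-IV-High). Like the summed osteoblast markers, it was highest in OVX replicate 2 and lowest in Sham replicates 1 and 2 and OVX-AS-IV-High replicate 1. The part of osteoblast markers in the level of Gja1 was not tested.

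β-catenin also links cadherins to the cytoskeleton. Of 10 tested genes of adherens junctions, 1 was higher in OVX than in Sham, Cdh2 (N-cadherin), with counts of 665, 828, 1143 (Sham), 1221, 1891, 1534 (OVX) and 763, 1703, 1433 (OVX-AS-IV-High) (log2FC 0.74). In OVX-AS-IV-High vs. Sham, Cdh11, the osteoblast cadherin, was higher (0.63) and Cdh5, the endothelial cadherin, lower (-0.43). Cdh5 is also 1 of the 6 endothelial markers, of which 5 were lower in that comparison, with a median of -0.43: Pecam1 (-0.52), Emcn (-0.48), Egfl7 (-0.43), Tek (-0.32) and Cdh5 itself. The 6 markers, led by Pecam1, summed to 302, 313, 244 (Sham), 263, 289, 202 (OVX) and 224, 215, 209.5 CPM (OVX-AS-IV-High); their part in the level of Cdh5 was not tested. Treatment against OVX gave 0 of the 10.

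**Figure D4:**
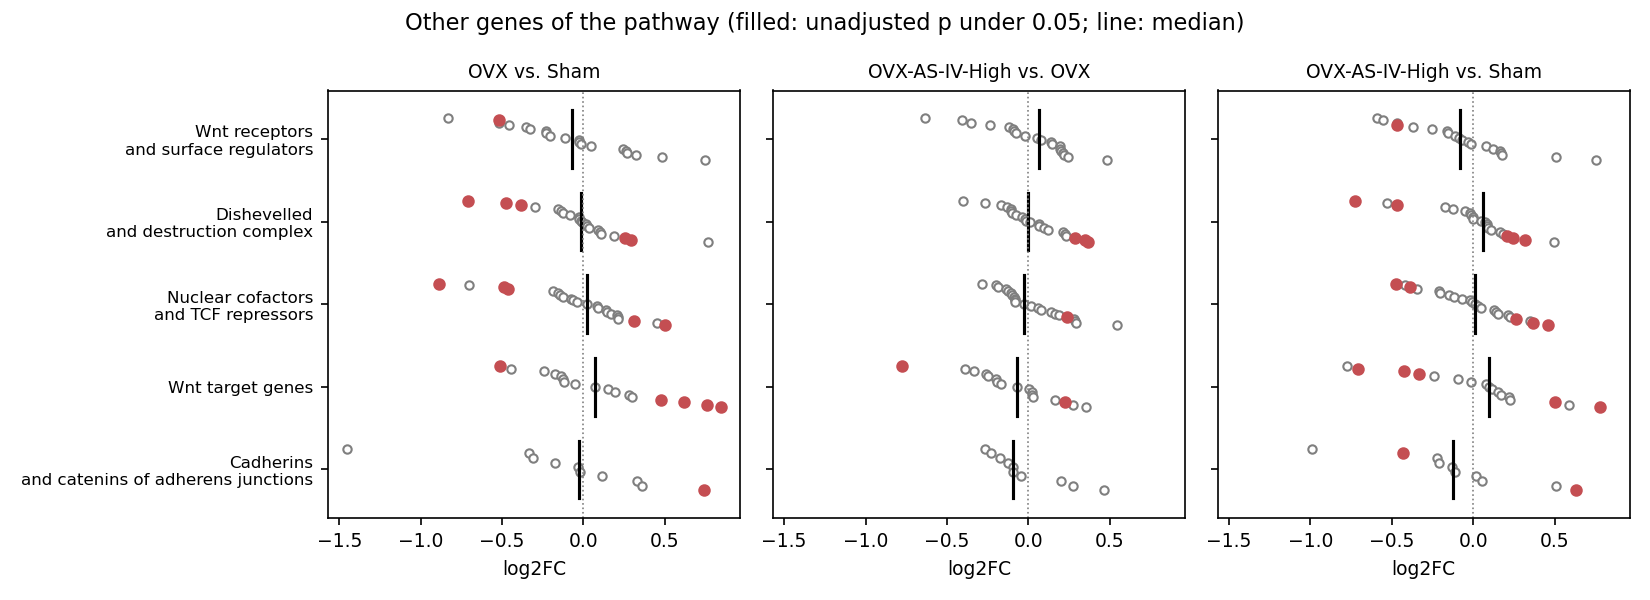
Log2 fold change (x) of each tested gene in the 5 pathway lists (y) in the 3 comparisons; filled points have an unadjusted p under 0.05 in edgeR's fit and the vertical line is the list's median. The medians lie between -0.12 and 0.10 in every list and comparison, with filled points on both sides of 0 in comparisons with Sham for most lists.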

How the data were processed

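Bone messenger RNA of 9 libraries was sequenced. The authors filtered reads with NGS QC Toolkit, aligned them with Tophat and Bowtie2 and estimated gene abundance with eXpress; the submitters' processing notes name the build mRatBN7.2. The deposited count table holds whole numbers that were not normalized, and how eXpress estimates became whole numbers is not given in the sources used here. The deposited FPKM values, scaled by gene length and library size, served to compare levels between genes. The 10 genes and all lists were chosen with earlier results of these data known.

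Counts were tested with edgeR 4.0.16 in R 4.3.3 (quasi-likelihood test, TMM scaling, a minimum count of 10 in the filter, all 9 libraries in 1 fit, Benjamini-Hochberg adjustment over 16874 genes); across genes, biological variation had a common coefficient of 0.256. Code was tested on simulated data. Log2 CPM used a prior count of 2, and 3 counts were taken as the detection limit. Alternatives were DESeq2 1.42.0, limma 3.58.1 on log2(FPKM + 1) and log2(FPKM + 0.1), RLE scaling, no filter, only the groups compared, the replicate number as a block, each library left out, and Sham replicates 1 and 2 left out. Correlations have two-sided exact permutation p-values over all pairings, adjusted over 45 or 110 pairs.

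Whether replicate numbers pair libraries was checked by correlating deviations from group means. The values for numbers 1, 2 and 3 were 0.310, 0.158 and 0.130 for OVX-AS-IV-High and OVX, 0.200, -0.161 and 0.253 for OVX and Sham, and 0.314, -0.158 and 0.435 for OVX-AS-IV-High and Sham. These values do not establish pairs, and the study's methods call the replicates independent. The main fit therefore has no replicate block, which was used only as an alternative. Beyond the 10 genes, the text names up to 3 genes per direction, pathway list and comparison with the smallest p among those with an unadjusted p under 0.05, and for each of the 10 the 2 genes of highest Pearson r. Tnfrsf19, named by this rule for OVX-AS-IV-High vs. OVX, is also given for OVX vs. Sham. Promoters came from RefSeq (GRCr8), and plots were drawn with matplotlib 3.10.9.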

Additional observations from a re-analysis of the deposited data

How the results depend on the processing

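Of 510 log2FC of the 10 genes recomputed under an alternative, 459 kept their direction and their side of an unadjusted p of 0.05, 21 moved inside it, 11 moved outside it and 19 changed sign. The sign changes were in genes whose log2FC was not called in either fit. With limma, Gsk3b in OVX-AS-IV-High vs. OVX was -0.0056 on log2(FPKM + 1) and -0.0060 on log2(FPKM + 0.1). With Sham replicates 1 and 2 both left out, chosen after seeing the data, with the lone Sham library assumed to vary like the other groups, OVX vs. Sham gave 0.080 for Lrp5, -0.023 for Gsk3b and -0.13 for Lef1, and OVX-AS-IV-High vs. Sham gave -0.092 for Axin1, 0.039 for Axin2 and -0.14 for Lef1. With each library left out in turn, log2FC in OVX vs. Sham ran from -0.035 to 0.11 for Gsk3b and from -0.012 to 0.22 for Axin2; in OVX-AS-IV-High vs. OVX from -0.072 to 0.18 for Ctnnb1, -0.15 to 0.0080 for Lrp5, -0.21 to 0.13 for Lrp6, -0.010 to 0.051 for Gsk3b, -0.23 to 0.13 for Lef1 and -0.63 to 0.16 for Tcf7; and in OVX-AS-IV-High vs. Sham from -0.15 to 0.041 for Axin2. The cause was not tested.

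The count of the 10 genes with an unadjusted p under 0.05 was 0 in OVX vs. Sham with all libraries (16.4% of all genes) and 1 with no filter (13.1%), 1 with DESeq2 (18.8%), 1 with only the groups compared (17%), and 0 to 2 with a library left out (10.3% to 25.2%). Between treated and untreated OVX rats it was 1 (6.45%), and 1 to 2 with a library left out (3.95% to 8.32%). In OVX-AS-IV-High vs. Sham it was 1 (17.6%), and 2 with no filter (13.8%), 2 with DESeq2 (19.5%), 0 with limma at either pseudocount (17.5% and 17.3%), 0 with Sham replicates 1 and 2 left out (9.05%), and 0 to 2 with a library left out (11.2% to 23.3%). With the replicate block, the counts were 2 in OVX vs. Sham (21.8%), 1 between treated and untreated OVX rats (7.76%) and 2 in OVX-AS-IV-High vs. Sham (22%). Of the 45 pairs of the 10 genes, 0 had an adjusted p under 0.05, and 0 to 1 with a library left out. Of the 110 pairs with marker lists, 5 did, 2 by Spearman's rho, 8 on log2(FPKM + 1), 0 to 8 with a library left out, and 0 on deviations from group means, where permutations within groups cannot give a p under 0.00463.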

Other observations

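With 3 libraries per group, the 95% intervals of log2FC in OVX vs. Sham were as narrow as -0.16 to 0.28 for Gsk3b and as wide as -0.016 to 1.47 for Tcf7. A difference anywhere within an interval is compatible with these data. Sequencing batches are not given in the sources used here. Skeletal muscle, lymphoid, cartilage and adipocyte markers differed between libraries of the same group, and their part in the levels was not tested. Transcripts alone were measured: the stability, phosphorylation and location of β-catenin, through which the pathway acts, are not part of these values. The Sham labels give unequal vehicle concentrations, which cannot be told apart from the spread between Sham libraries.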
